A study of Mus musculus with 9 samples.

Results

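A set of 36 genes of cell proliferation and neurogenesis was followed through RNA-seq libraries of mouse cortex. Members were the rows of the deposited count table whose symbol is on a fixed list of DNA replication genes, cyclins and their kinases, mitosis genes and the immature neuron genes Dcx, Sox11 and Stmn1. All 36 were found among the 34714 symbols of the table, and each had at least 1 count in every library. All 36 were among the 18644 genes with enough counts to be tested.

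Dividing cells copy their DNA in S phase and separate the copies in mitosis. Before S phase the MCM hexamer is loaded at replication origins, the D and E cyclins with their kinases release E2F factors from the retinoblastoma proteins, and E2F factors switch on many replication genes. Mitosis genes follow later and are known to be held down in resting cells through CHR elements in their promoters. The adult cortex is known to hold few dividing cells, mainly oligodendrocyte precursors, and new neurons in the adult mouse are known chiefly from the subventricular zone and the dentate gyrus.

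The study compared 3 groups of 3 mouse brains each. The first group had experimental autoimmune encephalomyelitis (EAE), a mouse model of multiple sclerosis in which immune cells attack the brain and spinal cord, and received Au18(L-NIBC)14, a gold nanocluster capped with N-isobutyryl-L-cysteine. The second group had EAE and no labelled treatment, and the third was naive. Strain, age, sex, the way EAE was induced, its stage, and the nanocluster's dose and timing are not stated in the labels. All brains gave cortical tissue, from which poly(A) RNA was sequenced. Each group has brains numbered 1, 2 and 3, with no statement on whether a brain is 1 mouse or a pool. In bulk tissue, fewer cells of a type and less RNA per cell cannot be told apart.

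Levels are given in CPM, the count of a gene scaled to a common library size. Total counts per library were between 26972179 and 45243553. Cortical excitatory neuron markers were high in every library, with a summed level of 5699 to 7127 CPM for Slc17a7, Camk2a, Neurod6, Tbr1 and Nrgn. Libraries also held markers of a neighbouring region: the 5 striatal markers Drd1, Drd2, Adora2a, Ppp1r1b and Rgs9 were present in all 9 libraries. Their summed level was 186 to 653 CPM in treated EAE, 146 to 882 CPM in untreated EAE and 131 to 989.5 CPM in naive brains. The summed choroid plexus markers reached 898 CPM in untreated EAE brain 1 and were between 7.50 and 104 CPM in the other libraries. Monocyte markers summed to 7.28 to 17.1 CPM in treated EAE, 15.0 to 109 CPM in untreated EAE and 6.86 to 7.48 CPM in naive brains.

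Levels of the members were compared with each other per kilobase of exon. Stmn1 stood at 208 CPM per kilobase, averaged over the 9 libraries, and the next were Pcna at 14.1, Ccnd1 at 11.2, Cdk4 at 9.67 and Ccnd2 at 8.02. The MCM genes lay between 0.749 (Mcm2) and 3.27 (Mcm7). The lowest were Cdk1 at 0.0932, Bub1 at 0.0753 and Ccnb1 at 0.0738 CPM per kilobase. Ccnb1 rested on 3 to 30 counts a library. Of the immature neuron genes, Dcx stood at 3.999 and Sox11 at 2.22 CPM per kilobase. Levels of genes known from neuron precursors varied: Eomes, a factor of intermediate progenitors, had 0 to 0.584 CPM, Igfbpl1 had 0.276 to 2.26 CPM and Neurog2 had 0.679 to 1.18 CPM, while Nes, Pax6 and Sox2, which glia express too, had 10.9 to 21.7, 9.01 to 11.6 and 36.6 to 54.8 CPM.

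Promoters of 5 members with low p-values or a leading place in the mitosis group are shown because the replication and mitosis genes are known for E2F, CHR and CCAAT elements there. RefSeq windows (GRCm38.p6, 250 bases before to 50 bases after the start, on the gene's strand) were found for 30 of the 36 members. Capitals mark E2F letters (TTTCCCGC, TTTGGCGC, TTTCGCGC or TTTGCCGC), CHR letters (TTTGAA) and CCAAT, each searched on both strands, so that a match on the other strand reads reversed and complemented. The windows are Mcm2 (chr6:88898731-88899030, minus strand), Mcm5 (chr8:75109259-75109558, plus strand), Mki67 (chr7:135716330-135716629, minus strand), Top2a (chr11:99024140-99024439, minus strand) and Sox11 (chr12:27342669-27342968, minus strand).
Mcm2: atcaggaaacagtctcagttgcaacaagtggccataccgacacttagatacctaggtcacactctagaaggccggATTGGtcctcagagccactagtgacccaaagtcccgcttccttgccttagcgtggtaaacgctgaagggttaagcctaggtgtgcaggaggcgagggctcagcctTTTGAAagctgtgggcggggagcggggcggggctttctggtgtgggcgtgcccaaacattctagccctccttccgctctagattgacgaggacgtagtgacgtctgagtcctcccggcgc
Mcm5: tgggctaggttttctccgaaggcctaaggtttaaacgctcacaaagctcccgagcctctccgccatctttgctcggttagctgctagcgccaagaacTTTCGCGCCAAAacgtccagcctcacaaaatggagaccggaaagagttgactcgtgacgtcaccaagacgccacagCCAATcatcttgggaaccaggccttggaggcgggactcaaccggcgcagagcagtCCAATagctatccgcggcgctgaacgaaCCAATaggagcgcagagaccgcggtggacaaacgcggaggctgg
Mki67: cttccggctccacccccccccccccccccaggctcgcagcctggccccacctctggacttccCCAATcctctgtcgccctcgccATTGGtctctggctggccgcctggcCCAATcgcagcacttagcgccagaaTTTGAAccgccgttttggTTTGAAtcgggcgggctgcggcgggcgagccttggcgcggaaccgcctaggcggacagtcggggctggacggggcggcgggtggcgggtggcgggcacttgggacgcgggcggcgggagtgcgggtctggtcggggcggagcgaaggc
Top2a: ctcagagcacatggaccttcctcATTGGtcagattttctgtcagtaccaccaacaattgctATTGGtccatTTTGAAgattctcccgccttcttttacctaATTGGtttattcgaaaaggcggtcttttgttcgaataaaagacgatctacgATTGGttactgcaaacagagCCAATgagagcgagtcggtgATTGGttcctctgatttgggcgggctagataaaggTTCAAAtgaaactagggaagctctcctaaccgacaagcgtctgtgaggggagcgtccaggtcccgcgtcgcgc
Sox11: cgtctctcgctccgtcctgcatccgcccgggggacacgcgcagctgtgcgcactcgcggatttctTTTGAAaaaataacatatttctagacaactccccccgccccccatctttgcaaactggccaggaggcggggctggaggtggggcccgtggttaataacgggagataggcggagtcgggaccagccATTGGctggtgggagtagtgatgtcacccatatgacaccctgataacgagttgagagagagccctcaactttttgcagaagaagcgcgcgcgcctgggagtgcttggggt

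In the Mcm5 window a run of 12 capitals holds 2 overlapping E2F matches, 1 on each strand, and 3 CCAAT matches follow. The Mcm2 window held none of the E2F letters, 1 CHR match and 1 CCAAT match. Mki67 had 2 CHR matches and 3 CCAAT matches, and Top2a had 2 CHR matches and 6 CCAAT matches. E2F letters occurred in 11 of the 30 members (36.7%), against 2.6% of the 27025 genes with a window and 2.26% of the 32851 windows. They were in 4 of the 5 MCM genes with a window and in 1 of the 8 mitosis genes. CHR letters occurred in 9 of the 30 members (30.0%), against 20.2% of genes and 17.9% of windows, and were in 5 of the 8 mitosis genes. CCAAT occurred in 20 of the 30 members (66.7%), against 41.1% of genes and 37.4% of windows, and was in all 5 MCM genes and 7 of the 8 mitosis genes. A match of letters is a description of the window and not a measured site.

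Among the members with the smallest p, most were lower in untreated EAE than in both other groups. Mcm2, Mcm5, Uhrf1 and Stmn1 had their 3 lowest libraries in untreated EAE, and Sox11 had its 3 highest there. With larger p, Mcm4 had its 3 lowest there too, and Cdc45 its 3 highest. Treated libraries lay above all untreated EAE ones for 9.93% of all genes and below them for 9.28%. Untreated EAE libraries lay below all naive ones for 11.8% and above them for 12.2%. The share of genes with both at once was not counted. None of the 36 members passed edgeR's quasi-likelihood test at an adjusted p of 0.05 in any of the 3 comparisons. The EAE libraries are shared between the first and second comparison, so an EAE group that happened to be low would appear in both. Those values stand side by side here and are not separate evidence. Erythroid markers (Hba-a1, Hba-a2, Hbb-bs, Hbb-bt and Alas2) ran the same way as Mcm2, Mcm5, Uhrf1 and Stmn1, with summed levels of 102 to 379.8 CPM in treated EAE, 7.16 to 23.6 CPM in untreated EAE and 131 to 175 CPM in naive brains and none at 0 in any library. Their median log2 fold change was 4.20 for treated against untreated EAE, with 1 of 5 called by edgeR, and -3.31 for untreated EAE against naive, with 2 of 5 called. Gfap, the filament gene of reactive astrocytes, ran the way of Sox11, at 159 to 235 CPM in treated EAE, 262 to 627 CPM in untreated EAE and 99.6 to 210.2 CPM in naive brains. It was 1 of 6 astrocyte markers, with Aqp4, Aldh1l1, Gja1, Slc1a3 and Slc1a2. Of the 6, 2 were above 0 and 4 below in treated against untreated EAE (median log2 fold change -0.15). In untreated EAE against naive, 3 were above 0 and 3 below (median 0.02). The part of erythroid or astrocyte markers in the members' values was not tested.

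**Figure D1:**
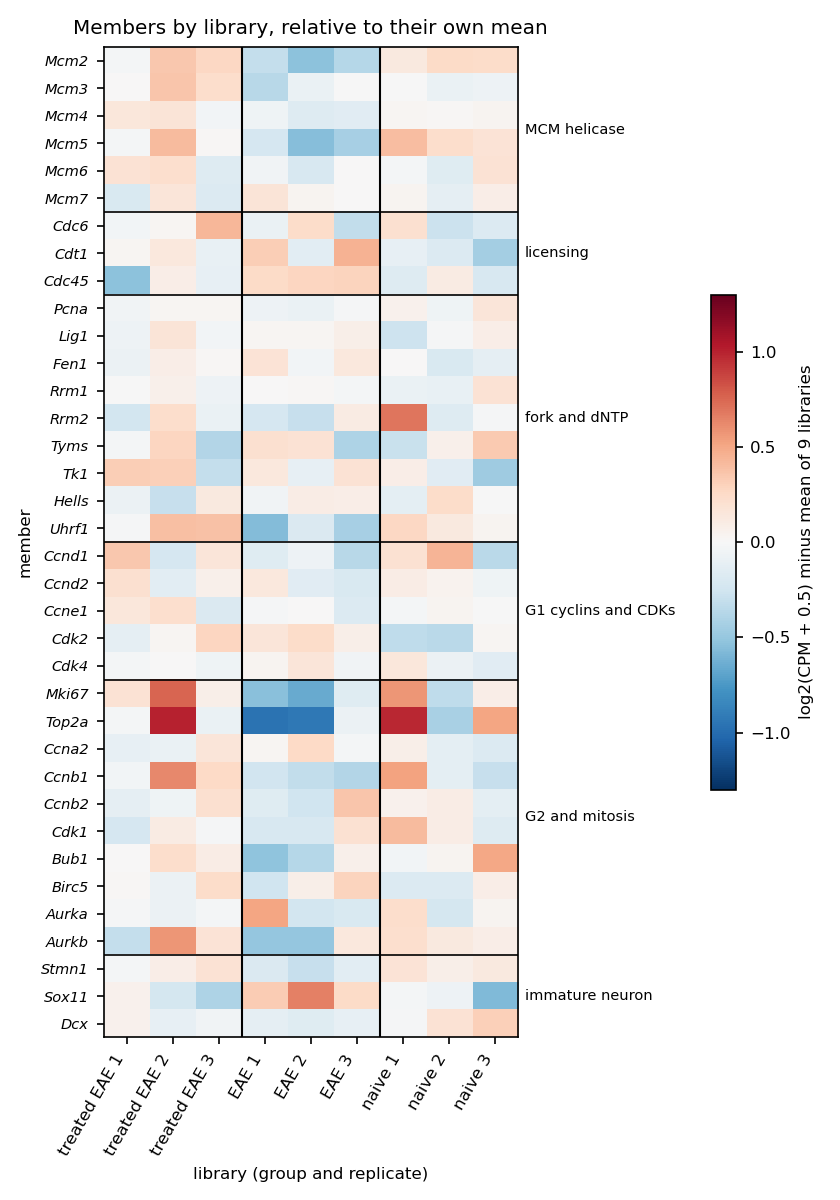
Level of the 36 members (rows, by role) in the 9 libraries (columns, treated EAE, then untreated EAE, then naive), as log2(CPM + 0.5) minus the member's mean over the 9 libraries. Mcm2, Mcm5, Uhrf1 and Stmn1 are below their mean in all 3 untreated EAE libraries and Sox11 is above it, while Mki67 and Top2a are highest in treated EAE brain 2 and naive brain 1.

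For treated against untreated EAE, which asks whether the nanocluster went with a change in mice with EAE, 0 of 36 members were called by edgeR (0.22% of all genes were), and the smallest adjusted p was 0.112. At an unadjusted p under 0.05, 9 members (25.0%) were higher in treated EAE, against 7.43% of all genes, and 1 (2.78%) was lower, against 7.65%. The 3 treated libraries lay above all 3 untreated ones for 8 members (22.2%), against 9.93% of genes, and below them for 2 (5.56%), against 9.28%. The median log2 fold change was 0.11 over the members and 0.00 over all genes tested, and 23 of the 36 members were above 0. DESeq2, the tool the study's design text names, called 3 of the 34 members for which it gave an adjusted p (8.82%), against 3.84% of all genes.

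For untreated EAE against naive, which asks what the disease changed, edgeR called 0 of 36 members (0.987% of all genes), with a smallest adjusted p of 0.0713. At an unadjusted p under 0.05, 2 members (5.56%) were higher in untreated EAE, against 9.42% of genes, and 7 (19.4%) were lower, against 6.97%. Groups did not overlap for 3 members higher in untreated EAE (8.33%, against 12.2% of genes) and 6 lower (16.7%, against 11.8%). The median log2 fold change was -0.08 over the members and -0.01 over all genes. DESeq2 called 4 of 36 members (11.1%), against 5.68% of genes.

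For treated EAE against naive, which asks how far treated brains lay from healthy ones, edgeR called 0 of 36 members and 0% of all genes. At an unadjusted p under 0.05, 0 members were higher (1.07% of genes) and 1, Dcx, was lower (2.78%, against 0.638%). Groups did not overlap for 2 members higher in treated EAE (5.56%, against 3.51%) and for 0 lower (2.74% of genes). DESeq2 called 0 members, against 0.0109% of genes. The median log2 fold change was 0.02 over the members and 0.01 over all genes.

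**Figure D2:**
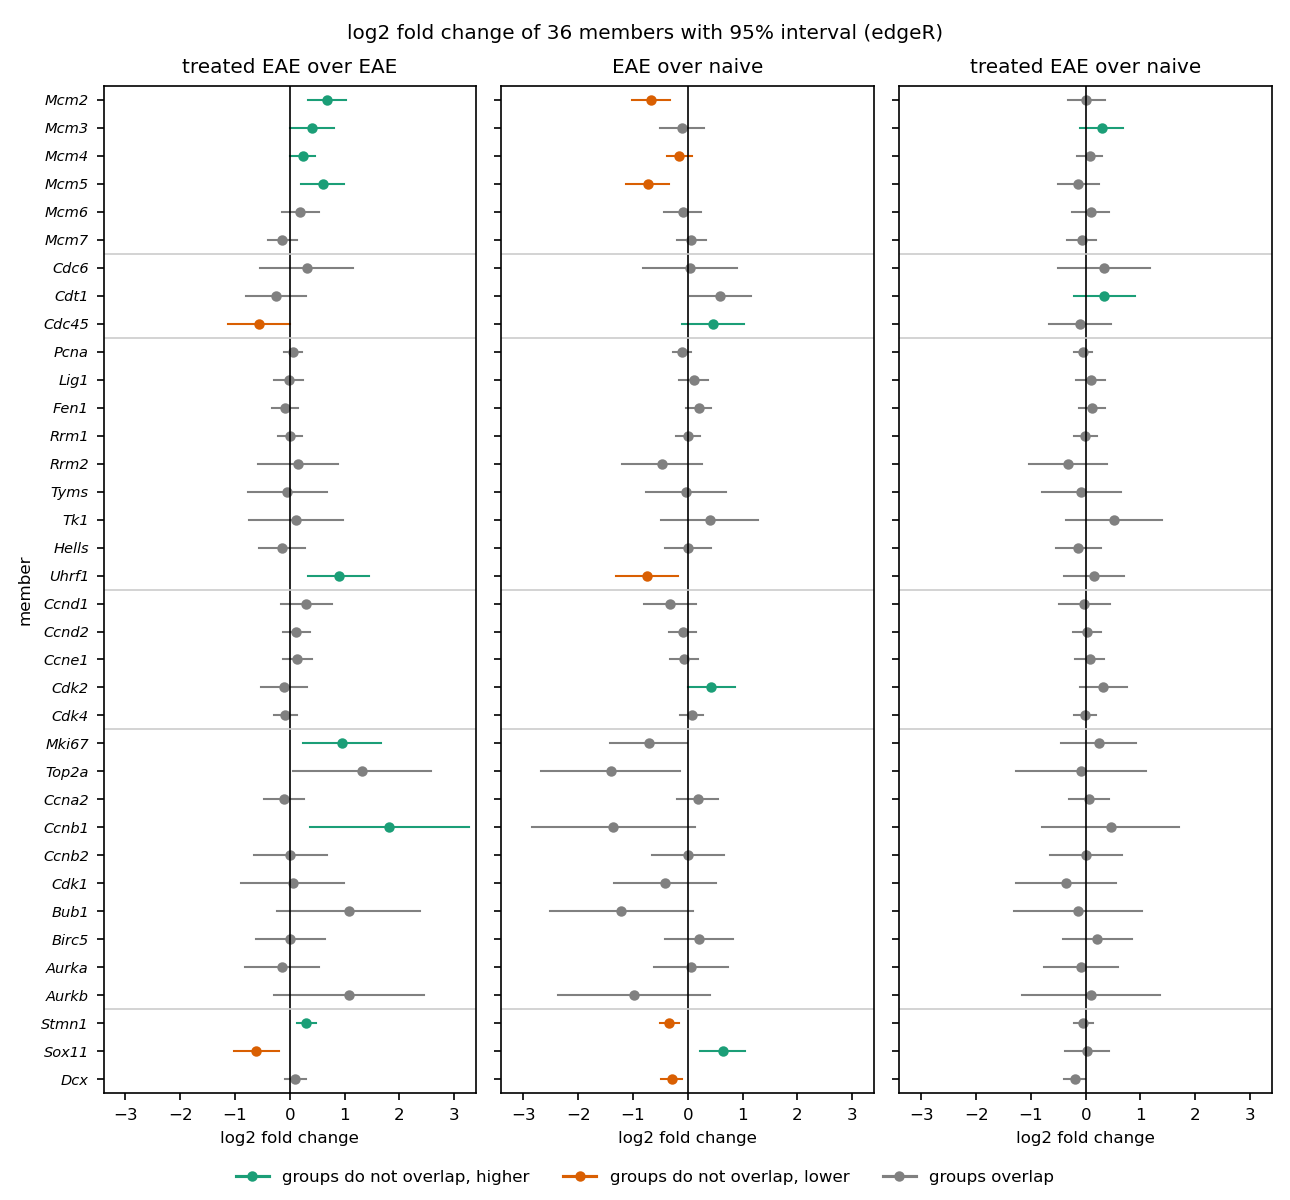
Log2 fold change of the 36 members (rows, by role) with its 95% interval from edgeR, for treated over untreated EAE, untreated EAE over naive and treated EAE over naive. Colour marks groups whose 3 libraries do not overlap. Mcm2, Mcm5, Uhrf1 and Stmn1 are right of 0 in the first panel and left of it in the second, Sox11 is on the opposite sides, and no member passed the adjusted threshold.

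The 6 subunits of the MCM helicase, the motor that opens the DNA at replication forks, had a median log2 fold change of 0.32 in treated against untreated EAE, -0.13 in untreated EAE against naive and 0.04 in treated EAE against naive. Of the 6, 4 (Mcm2, Mcm3, Mcm4 and Mcm5) lay higher in all treated libraries than in all untreated EAE libraries, as 9.93% of all genes did. In all untreated EAE libraries 3 (Mcm2, Mcm4 and Mcm5) lay lower than in all naive ones, as 11.8% of all genes did. Mcm6 and Mcm7 overlapped in all 3 comparisons.

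Mcm2 (chr6:88883474-88898780, minus strand, GRCm38) had 5.01, 6.64 and 6.25 CPM in treated EAE brains, against 4.02, 3.36 and 3.82 CPM in untreated EAE brains and 5.59, 6.12 and 6.10 CPM in naive brains. The untreated EAE libraries were the 3 lowest, and treated and naive libraries overlapped. Mcm2 had log2 fold changes of 0.67 (SE 0.15) for treated against untreated EAE and -0.67 (SE 0.15) for untreated EAE against naive, with edgeR adjusted p of 0.112 and 0.0733. DESeq2 gave adjusted p of 0.0118 and 0.00851. Treated EAE and naive brains differed by 0.01, with a 95% interval of -0.33 to 0.35.

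Mcm5 (chr8:75109569-75128439, plus strand) had 5.47, 7.54 and 5.62 CPM in treated EAE brains, against 4.71, 3.62 and 3.995 CPM in untreated EAE brains and 7.49, 6.60 and 6.34 CPM in naive brains. Again the 3 untreated EAE libraries were lowest. For Mcm5 the log2 fold change was 0.60 (SE 0.17) for treated against untreated EAE, with an edgeR adjusted p of 0.167, and -0.73 (SE 0.17) for untreated EAE against naive, with an adjusted p of 0.0775. DESeq2 called Mcm5 in the second comparison (adjusted p 0.00726) and not in the first (0.0572). Without the library richest in striatal markers in each group, the first value was 0.34. With single libraries left out it was 0.43 to 0.70.

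Mcm3 had 3.52, 4.62 and 4.19 CPM in treated EAE brains, against 2.60, 3.27 and 3.47 CPM in untreated EAE brains and 3.49, 3.26 and 3.31 CPM in naive brains. Its treated libraries were the 3 highest, although the lowest of them (3.52 CPM) was close to the highest naive one (3.49 CPM). Its log2 fold change was 0.40 (SE 0.18, edgeR adjusted p 0.327) against untreated EAE and 0.29 (SE 0.18, adjusted p 1.00) against naive.

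Loading of the MCM hexamer is the work of Cdc6 and Cdt1, and Cdc45 joins it to form the active helicase. In the first 2 comparisons their median had the opposite sign to that of the MCM genes: the log2 fold change of the 3 had a median of -0.26 in treated against untreated EAE, 0.46 in untreated EAE against naive and 0.34 in treated EAE against naive. Cdc45 had 1.00, 1.80 and 1.51 CPM in treated EAE brains, against 2.08, 2.13 and 2.15 CPM in untreated EAE brains and 1.43, 1.83 and 1.38 CPM in naive brains, so that untreated EAE was above both other groups without overlap. Its log2 fold changes were -0.56 (SE 0.25, edgeR adjusted p 0.334) for treated against untreated EAE and 0.46 (SE 0.25, adjusted p 0.416) for untreated EAE against naive. Cdt1 had 1.76, 1.94 and 1.58 CPM in treated EAE brains, against 2.27, 1.52 and 2.54 CPM in untreated EAE brains and 1.56, 1.47 and 1.14 CPM in naive brains. Its untreated EAE libraries spanned the treated range, and its treated libraries lay just above the naive ones (log2 fold change 0.34, SE 0.25, edgeR adjusted p 1.00). Cdc6 was between 0.452 and 1.10 CPM and overlapped throughout.

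At the replication fork, 8 of 9 members overlapped between the groups in all 3 comparisons, and the median log2 fold change of the 9 was 0.00 in each. Pcna, the sliding clamp that holds the polymerases, had 32.8, 34.5 and 34.6 CPM in treated EAE brains, against 32.5, 31.9 and 33.7 CPM in untreated EAE brains and 35.2, 32.7 and 37.8 CPM in naive brains. All 9 values lay within a narrow band. The log2 fold change of Pcna was 0.05 for treated against untreated EAE (95% interval -0.11 to 0.22) and -0.11 for untreated EAE against naive (-0.27 to 0.05), with edgeR adjusted p of 0.780 and 0.516. Rrm1, the large subunit of ribonucleotide reductase, lay between 16.0 and 19.6 CPM, and Lig1, which joins nicks on the lagging strand, between 10.5 and 14.4 CPM. The regulated subunit Rrm2 reached 3.02 CPM in naive brain 1 and was between 1.26 and 2.04 CPM elsewhere.

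Uhrf1 (chr17:56303321-56323486, plus strand), which brings the maintenance DNA methyltransferase to newly copied DNA, was the exception among the 9. It had 1.42, 2.04 and 2.02 CPM in treated EAE brains, against 0.811, 1.20 and 0.938 CPM in untreated EAE brains and 1.83, 1.61 and 1.48 CPM in naive brains. The 3 untreated EAE libraries were the lowest, and treated and naive libraries overlapped. Its log2 fold changes were 0.89 (SE 0.25, edgeR adjusted p 0.164) for treated against untreated EAE and -0.74 (SE 0.25, adjusted p 0.185) for untreated EAE against naive. DESeq2 did not call it in either (adjusted p 0.0852 and 0.171).

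Of the members with enzymes for DNA building blocks, Tk1, a thymidine kinase, had 0.952, 0.949 and 0.441 CPM in treated EAE brains, against 0.779, 0.582 and 0.834 CPM in untreated EAE brains and 0.738, 0.550 and 0.345 CPM in naive brains. The groups overlapped, with 0.52 as the log2 fold change for treated EAE against naive (SE 0.39, edgeR adjusted p 1.00). That value was 0.28 without naive brain 3, 0.82 without naive brain 1 and 0.78 without treated EAE brain 3. Fen1, the flap endonuclease of lagging strand synthesis, had 12.1, 13.7 and 13.0 CPM in treated EAE brains, against 14.6, 12.5 and 14.1 CPM in untreated EAE brains and 12.9, 11.1 and 11.8 CPM in naive brains. These overlapped too, and 84.2% of the exon bases of Fen1 are shared with Gm10143 and Tmem258 on the opposite strand, so its reads cannot be told apart without strand. Exons of 12 members overlap another gene, and the share is over 10% for Fen1, Ccnd1 (23.4%), Cdk4 (19.7%), Mcm7 (12.6%) and Ccna2 (12.5%).

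**Figure D3:**
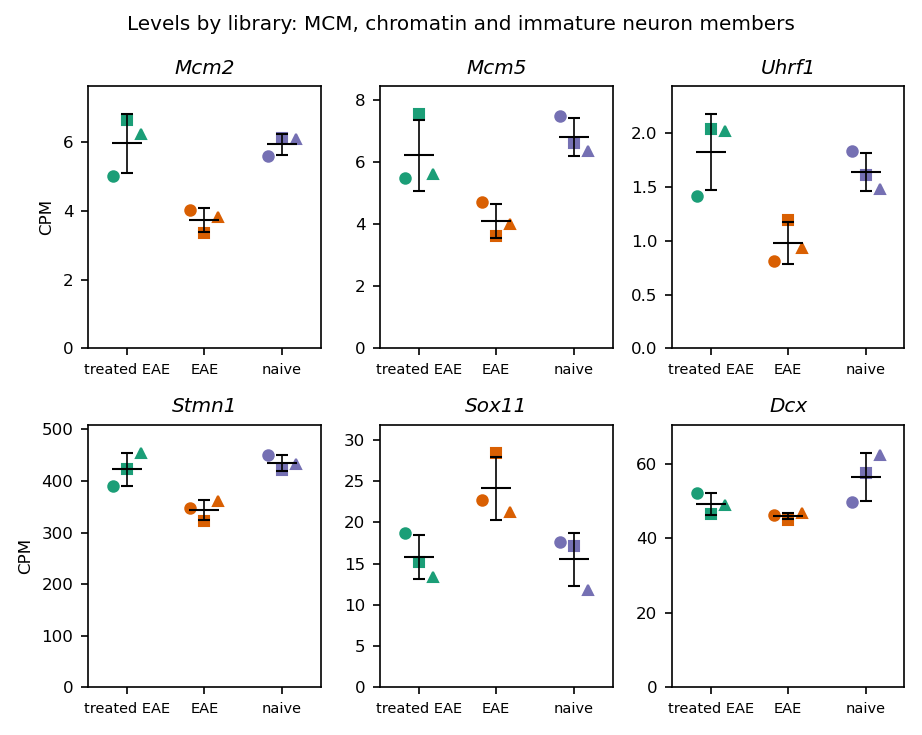
CPM of Mcm2, Mcm5, Uhrf1, Stmn1, Sox11 and Dcx in each library, with treated EAE, untreated EAE and naive from left to right. Circles, squares and triangles are brains 1, 2 and 3, the long bar is the mean and the error bar 1 SD (n = 3). Untreated EAE is the lowest group without overlap for the first 4 genes and the highest for Sox11.

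The G1 cyclins and kinases, which commit a cell to S phase, had medians of 0.12, -0.07 and 0.02 on the log2 fold change scale in the 3 comparisons. Ccnd1 had 66.3, 44.5 and 57.8 CPM in treated EAE brains, against 46.6, 49.7 and 40.5 CPM in untreated EAE brains and 59.8, 70.8 and 40.6 CPM in naive brains. Both other groups spread more widely than untreated EAE and overlapped it, and the log2 fold changes of Ccnd1 were 0.30 (SE 0.21, edgeR adjusted p 0.548) for treated against untreated EAE and -0.32 (SE 0.21, adjusted p 0.492) for untreated EAE against naive. The first was 0.15 without treated EAE brain 1 and 0.50 without the 3 striatum-rich libraries, and the second was -0.14 without naive brain 2 and -0.51 without naive brain 3. Ccnd2 had 86.9, 68.1 and 78.7 CPM in treated EAE brains, against 82.7, 67.9 and 65.3 CPM in untreated EAE brains and 80.2, 77.5 and 72.2 CPM in naive brains. All 3 of its groups overlapped, and its largest log2 fold change was 0.12 (SE 0.11), in treated against untreated EAE.

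Cdk2, the kinase of cyclin E, had 3.08, 3.44 and 4.19 CPM in treated EAE brains, against 3.83, 4.08 and 3.58 CPM in untreated EAE brains and 2.57, 2.53 and 3.45 CPM in naive brains. Untreated EAE lay above naive without overlap, with 0.43 as the log2 fold change (SE 0.19, edgeR adjusted p 0.311), and treated EAE overlapped both. Ccne1, cyclin E1, lay between 13.5 and 18.1 CPM and Cdk4, the kinase of the D cyclins, between 28.3 and 35.1 CPM, with groups overlapping in each comparison.

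The 10 members of G2 and mitosis had a median log2 fold change of 0.50 in treated against untreated EAE, -0.56 in untreated EAE against naive and 0.04 in treated EAE against naive. At an unadjusted p under 0.05, 3 of the 10 (Mki67, Top2a and Ccnb1) were higher in treated than in untreated EAE, against 7.43% of all genes, and 2 (Mki67 and Top2a) were lower in untreated EAE than in naive brains, against 6.97%. The groups did not overlap for 2 of the 10, Mki67 and Ccnb1, in the first comparison (9.93% of all genes, higher) and for 0 in the others.

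Mki67 (chr7:135689784-135716361, minus strand) encodes Ki-67, a coat protein of mitotic chromosomes and the usual marker of cycling cells. It had 3.52, 5.48 and 3.23 CPM in treated EAE brains, against 1.91, 1.75 and 2.67 CPM in untreated EAE brains and 4.76, 2.31 and 3.24 CPM in naive brains. Treated EAE was above untreated EAE in all libraries, and naive brains spanned from within the untreated range to near the top of the treated one. The log2 fold change of Mki67 was 0.95 (SE 0.32, edgeR adjusted p 0.205) for treated against untreated EAE and -0.71 (SE 0.32, adjusted p 0.301) for untreated EAE against naive.

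Top2a (chr11:98992943-99024189, minus strand), the topoisomerase that untangles sister chromatids, had 1.71, 3.98 and 1.62 CPM in treated EAE brains, against 0.649, 0.679 and 1.63 CPM in untreated EAE brains and 3.91, 1.17 and 2.69 CPM in naive brains. Treated EAE brain 2 and naive brain 1 stood highest, and the groups overlapped. For Top2a the log2 fold change was 1.32 (SE 0.56, edgeR adjusted p 0.314) for treated against untreated EAE and -1.41 (SE 0.56, adjusted p 0.254) for untreated EAE against naive.

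Treated EAE brain 2 and naive brain 1 were also the libraries with most striatal marker RNA in their groups, with 653 and 989.5 CPM. Untreated EAE brain 2, with 882 CPM, had the lowest summed level of the 10 mitosis members among the 9 libraries, at 11.9 CPM. That sum was 14.1, 19.6 and 15.9 CPM in treated EAE brains, against 11.97, 11.87 and 14.5 CPM in untreated EAE brains and 19.6, 12.4 and 15.2 CPM in naive brains. Without these 3 libraries the log2 fold change of Mki67 was 0.55 for treated against untreated EAE and -0.28 for untreated EAE against naive, and that of Top2a was 0.54 and -0.77. With only treated EAE brain 2 left out, Mki67 stood at 0.67 and Top2a at 0.75 in the first comparison. Leaving out only untreated EAE brain 3 gave the largest values there, 1.15 for Mki67 and 1.87 for Top2a. With only naive brain 1 left out, Mki67 and Top2a stood at -0.40 and -0.97 in the second. Furthest from 0 in the second were -0.93 for Mki67, without naive brain 2, and -1.97 for Top2a, without untreated EAE brain 3. The part of striatal tissue in these values was not tested.

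**Figure D4:**
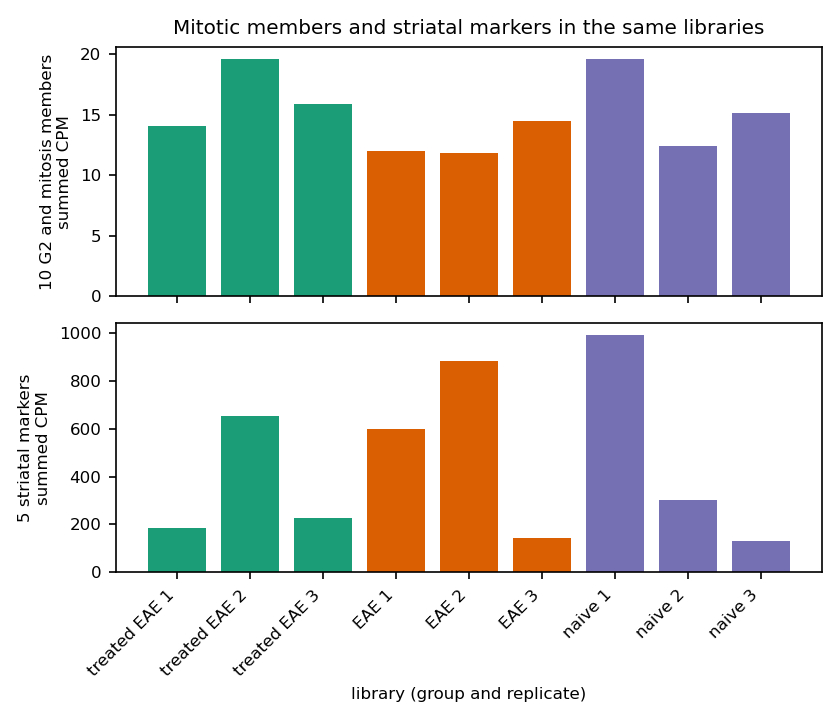
Summed CPM of the 10 G2 and mitosis members (upper panel) and of 5 striatal markers (lower panel) in each library, with treated EAE, untreated EAE and naive from left to right. The mitosis sum is highest, at 19.6 CPM, in treated EAE brain 2 and naive brain 1, where striatal markers are also high, and lowest, at 11.9 CPM, in untreated EAE brain 2, where they are high too.

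Other mitosis members rested on few counts. Ccnb1, the cyclin that drives entry into mitosis with Cdk1, had 11, 30 and 12 counts in treated EAE brains, against 5, 4 and 3 counts in untreated EAE brains and 28, 6 and 4 counts in naive brains. The treated libraries were above all untreated EAE libraries, with 1.82 as the log2 fold change (SE 0.65, edgeR adjusted p 0.232). Aurkb, the kinase of the chromosomal passenger complex, and Bub1, a kinase of the spindle checkpoint, had log2 fold changes of 1.08 (SE 0.61) and 1.07 (SE 0.58) for treated against untreated EAE, with overlapping groups. Their untreated EAE brain 3 lay with the other groups, at 0.486 CPM for Aurkb and 0.347 CPM for Bub1. Ccna2, Ccnb2, Cdk1, Birc5 and Aurka had log2 fold changes between -0.15 and 0.05 in the same comparison. Among these, Ccna2 and Ccnb2 encode cyclins, Cdk1 the kinase that acts with Ccnb1, Birc5 survivin and Aurka a kinase of the spindle poles.

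**Figure D5:**
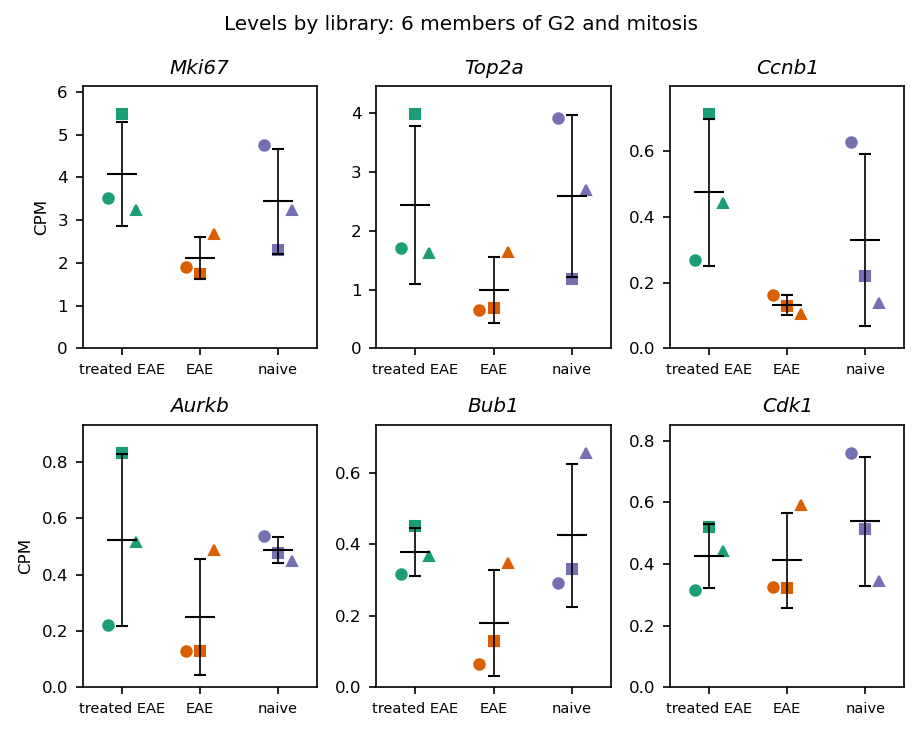
CPM of Mki67, Top2a, Ccnb1, Aurkb, Bub1 and Cdk1 in each library, with treated EAE, untreated EAE and naive from left to right. Circles, squares and triangles are brains 1, 2 and 3, the long bar is the mean and the error bar 1 SD (n = 3). Mki67 and Ccnb1 separate treated from untreated EAE, and the other 4 overlap.

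Markers of cells that could carry these genes gave the following. Summed oligodendrocyte precursor markers (Pdgfra, Cspg4, Gpr17, Bmp4, Neu4 and Olig1) were 255 to 350.5 CPM in treated EAE, 286 to 366 CPM in untreated EAE and 272 to 293 CPM in naive brains, with none at 0. All 6 had a log2 fold change below 0 in treated against untreated EAE (median -0.16). In untreated EAE against naive, 5 were above 0 and 1 below (median 0.27). EdgeR called 0 of them in either comparison. Summed microglia markers were 280.5 to 334 CPM in treated EAE, 263 to 509 CPM in untreated EAE and 248 to 303 CPM in naive brains. Of these 6 markers, 1 was above 0 and 5 below in treated against untreated EAE (median log2 fold change -0.25). In untreated EAE against naive, 5 were above 0 and 1 below (median 0.45), and 0 were called by edgeR in either comparison. Monocyte markers reached their highest sums in untreated EAE brains 2 and 3, at 51.1 and 109 CPM, and Plac8 was the only one of the 6 at 0 in any library. All 6 monocyte markers were below 0 in treated against untreated EAE (median log2 fold change -1.64), with 0 called by edgeR. All 6 were above 0 in untreated EAE against naive (median 2.63), with 2 called, against 0.987% of all genes. The T cell gene Cd3e was at most 0.259 CPM in every library. What these cells contributed to the members' levels was not tested.

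The 3 immature neuron genes differed in direction. Stmn1 (chr4:134468320-134473843, plus strand) encodes stathmin, which takes microtubules apart. It had 389.8, 423 and 453 CPM in treated EAE brains, against 348, 323 and 361 CPM in untreated EAE brains and 451, 421 and 433 CPM in naive brains. The untreated EAE libraries were the 3 lowest. The log2 fold change was 0.30 (SE 0.08) for treated against untreated EAE and -0.34 (SE 0.08) for untreated EAE against naive, with edgeR adjusted p of 0.143 and 0.0713 and DESeq2 adjusted p of 0.0179 and 0.00220. Treated EAE and naive brains differed by -0.04 (95% interval -0.22 to 0.13).

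Sox11 (chr12:27334264-27342574, minus strand), a transcription factor of newborn neurons, ran the other way. It had 18.7, 15.2 and 13.4 CPM in treated EAE brains, against 22.7, 28.4 and 21.3 CPM in untreated EAE brains and 17.6, 17.1 and 11.8 CPM in naive brains. The 3 untreated EAE libraries were the highest. Sox11 had log2 fold changes of -0.61 (SE 0.18, edgeR adjusted p 0.172) for treated against untreated EAE and 0.63 (SE 0.18, adjusted p 0.129) for untreated EAE against naive. DESeq2 gave adjusted p of 0.0454 and 0.0269. The interval between treated EAE and naive brains was -0.39 to 0.43.

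Dcx (chrX:143855842-143933311, minus strand), doublecortin, a microtubule-binding protein of migrating neurons, had 52.2, 46.6 and 48.9 CPM in treated EAE brains, against 46.3, 44.96 and 46.8 CPM in untreated EAE brains and 49.7, 57.5 and 62.3 CPM in naive brains. Naive libraries lay above all untreated EAE libraries and overlapped the treated ones. Dcx had log2 fold changes of 0.10 (SE 0.09, edgeR adjusted p 0.658) for treated against untreated EAE, -0.30 (SE 0.09, adjusted p 0.133) for untreated EAE against naive and -0.20 (SE 0.09, adjusted p 1.00) for treated EAE against naive. Excitatory neuron markers, which belong to mature neurons, summed to 6077 to 7127 CPM in treated EAE, 5892 to 6130.0 CPM in untreated EAE and 5699 to 6618 CPM in naive brains. Camk2a, at 3302 to 4282 CPM, made up most of each sum. Of the 5 markers, 4 were above 0 and 1 below in treated against untreated EAE (median log2 fold change 0.32). In untreated EAE against naive, 1 was above 0 and 4 below (median -0.22). EdgeR called 0 of the 5 in either comparison. The part of these markers in the values of Stmn1 and Dcx was not tested.

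Further genes of the same processes, none of them members, were also uncalled by edgeR: 0 of 50 tested replication genes, 0 of 44 mitosis genes, 0 of 32 genes of G1/S control and 0 of 43 neurogenesis genes passed in any comparison. The neurogenesis list shares Neurod6 and Tbr1 with the excitatory neuron markers. It also holds genes of high mean level over the 9 libraries, such as Dclk1 (883 CPM) and Basp1 (393 CPM). What mature neurons contributed to its values was not tested. Over all genes tested, an unadjusted p under 0.05 was reached by 7.43% higher and 7.65% lower in treated against untreated EAE, 9.42% and 6.97% in untreated EAE against naive, and 1.07% and 0.638% in treated EAE against naive. For treated against untreated EAE, an unadjusted p under 0.05 was reached by 1 higher and 0 lower replication genes, 4 higher and 2 lower mitosis genes, 3 higher and 6 lower G1/S control genes, and 9 higher and 0 lower neurogenesis genes. For untreated EAE against naive these numbers were 0 and 1, 2 and 6, 5 and 1, and 0 and 8 in the same order. For treated EAE against naive they were 0 and 2, 0 and 0, 0 and 1, and 0 and 0. The median log2 fold changes of the 4 lists were -0.02, 0.18, -0.13 and 0.09 for treated against untreated EAE, -0.03, -0.21, 0.07 and -0.12 for untreated EAE against naive, and -0.03, -0.03, 0.02 and -0.01 for treated EAE against naive.

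In G1/S control the smallest p in both comparisons with untreated EAE belonged to an inhibitor and an activator of the cycle. Cdkn1a, an inhibitor of cyclin-dependent kinases, had 10.1, 15.6 and 14.2 CPM in treated EAE brains, against 23.1, 24.8 and 25.2 CPM in untreated EAE brains and 17.8, 13.6 and 10.6 CPM in naive brains. Its untreated EAE libraries were the 3 highest. The log2 fold change of Cdkn1a was -0.88 (SE 0.20, edgeR adjusted p 0.118) for treated against untreated EAE and 0.80 (SE 0.20, adjusted p 0.0928) for untreated EAE against naive. Foxm1, a factor that drives mitosis genes, had 2.91, 2.70 and 2.28 CPM in treated EAE brains, against 1.33, 1.49 and 1.60 CPM in untreated EAE brains and 2.73, 2.02 and 2.998 CPM in naive brains. Here the untreated EAE libraries were the 3 lowest, and the log2 fold change was 0.84 (SE 0.22, edgeR adjusted p 0.142) and -0.81 (SE 0.22, adjusted p 0.103). DESeq2 called both genes in both comparisons, with adjusted p of 0.00265 and 0.00584 for Cdkn1a and 0.0388 and 0.0386 for Foxm1.

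Among neurogenesis genes the growth cone genes Stmn2 and Basp1 had the smallest p in treated against untreated EAE. Basp1 had 417, 405 and 424 CPM in treated EAE brains, against 342, 308 and 349.9 CPM in untreated EAE brains and 444, 435 and 408 CPM in naive brains, so its untreated EAE libraries were lowest. Its log2 fold change was 0.32 (SE 0.07, edgeR adjusted p 0.108) for treated against untreated EAE and -0.36 (SE 0.07, adjusted p 0.0519) for untreated EAE against naive. Stmn2 also stood at 0.32 on the log2 fold change scale for treated against untreated EAE (SE 0.07, edgeR adjusted p 0.0948). Tmsb10, an actin-binding protein, had one of -0.38 (SE 0.09, adjusted p 0.0708) for untreated EAE against naive. DESeq2 called Basp1 (adjusted p 0.00296 and 0.00014) and Stmn2 (0.00121 and 0.0226) in both of these comparisons. It called Tmsb10 in the second (0.00710). Of all genes, DESeq2 called 3.84% and 5.68% there. In treated EAE against naive the smallest p belonged to the transcription factor genes Sox2 (-0.23, SE 0.11) and Sox4 (-0.21, SE 0.12), both with an edgeR adjusted p of 1.00. Of the exon bases of Sox4, 54.6% are shared with Gm26735 on the opposite strand.

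In the replication list Gins2 and Gins3, which belong to the GINS complex of the helicase, were apart in opposite directions in treated against untreated EAE, at log2 fold changes of 0.80 (SE 0.33) and -0.43 (SE 0.20), and 67.3% of the exon bases of Gins2 are shared with Gse1 on the opposite strand. In untreated EAE against naive, Dut, which clears dUTP, stood at -0.31 (SE 0.10) and Rpa3, of the single-strand binding complex, at -0.40 (SE 0.19). The polymerase subunit Pole (-0.37, SE 0.16) and the fork protein Tipin (-0.23, SE 0.10) led in treated EAE against naive. In the mitosis list the checkpoint genes Mad2l1 (0.46, SE 0.14) and Bub1b (-1.38, SE 0.48) led in treated against untreated EAE, again in opposite directions. The kinetochore motor Cenpe (-0.79, SE 0.25) and Cks1b (0.78, SE 0.28) led in untreated EAE against naive, and the kinase Plk1 (0.48, SE 0.24) and the condensin gene Ncapg (-0.58, SE 0.38) in treated EAE against naive. In G1/S control of that comparison the ubiquitin ligase gene Skp2 (-0.27, SE 0.11) and E2f4 (0.14, SE 0.07) led. None of these reached an edgeR adjusted p of 0.05. DESeq2 called Bub1b in treated against untreated EAE (adjusted p 0.0461) and none of the others in the comparison given for them.

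Libraries differed among themselves in how many members they held at the extremes. Treated EAE brain 2 was the highest of the 9 libraries for 12 of the 36 members, and every other library was highest for 2 to 5. Untreated EAE brain 2 was lowest for 12 members, and every other library was lowest for 1 to 5. How often each library was highest or lowest over all genes tested was not counted, so these counts cannot be read as particular to the members.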

How the data were processed

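RNA of 9 brains, 3 per group, was measured as poly(A) RNA-seq of cortex. Per the series' design text in the labels, reads were aligned with Hisat2, quantified with bowtie2 and compared with DESeq2. Per the submitters' processing notes, reads were checked with FastQC 0.11.8 and trimmed with fastp, and the build was mm10. Neither the annotation nor the strand setting is given in the sources used here. Raw counts per gene symbol were deposited by the authors. Left out were 9 columns that could be matched to no sample. Genes with 2 counts were 3.80 to 4.43 times as many as genes with 1, as counting both mates of a pair would give, so small counts are less precise than they look. Libraries of the same group differed by far more than sampling noise (chi-square per degree of freedom 16.0 to 53.4), so none is a copy of another.

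The 36 members and the pathway and marker lists were chosen with earlier results of these data known. The fit used edgeR 4.0.16 under R 4.3.3 (TMM factors, genes kept by filterByExpr, robust quasi-likelihood) over all 9 libraries with group as the factor, leaving 6 residual degrees of freedom. Adjusted p-values (Benjamini-Hochberg) cover 18644 genes, and the threshold was 0.05. The test was also run on counts simulated from edgeR's own fitted values, which cannot show whether its model holds for these counts. DESeq2 1.42.0 was an alternative. CPM values use TMM factors, SE is the absolute log2 fold change over the square root of F, and exon lengths and coordinates are from GENCODE M21 (GRCm38). The titles number the brains, and p-values set the differences between groups against the spread between these samples. Values in every library were given for the 6 members with the smallest p in each comparison and for Mki67, Top2a, Pcna, Mcm2, Mcm5, Ccnd1, Ccnd2, Stmn1, Sox11 and Dcx, and the 2 pathway genes with the smallest p in each list were named where none was called. Library values of Cdc45, Cdkn1a, Foxm1 and Basp1 and counts of Ccnb1 were added after their values were seen. Tried as alternatives were RLE scaling, DESeq2, 2 other filters, fits of 2 groups, a replicate block, leaving out each library, and, chosen after seeing the data, leaving out the library of each group with most striatal marker RNA. From the excitatory neuron and striatal marker lists, 1 gene each is not reported here and is not in the sums.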

Additional observations from a re-analysis of the deposited data

How the results depend on the processing

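Each comparison was repeated under 16 alternatives. The count of members called was 0 under each edgeR alternative and, with DESeq2, 3 for treated against untreated EAE and 4 for untreated EAE against naive. Pathway genes called were 6 and 7 with DESeq2 in the same comparisons, from lists with 50, 44, 32 and 43 genes tested by edgeR. DESeq2 called 3.84% and 5.68% of all genes there. In the second comparison, pathway genes called were 1 without a low-count filter and 1 with a filter of at least 1 CPM in 3 libraries. When single libraries were left out they were 0 to 1, the 1 coming without treated EAE brain 3. The members' median log2 fold change for treated against untreated EAE was 0.021 under the 1 CPM filter, which keeps 30 members, against 0.11. Members left out by that filter were all above 0 in the main fit. They were Ccnb1 (1.82), Aurkb (1.08), Bub1 (1.07), Cdc6 (0.30), Tk1 (0.12) and Cdk1 (0.05). Without the striatum-rich libraries the members' median was 0.027, and the cause was not tested. With a replicate block 0 members were called in each comparison, and the medians were 0.08, -0.08 and 0.00. Same-numbered libraries did not deviate together in all pairs (correlations 0.17, 0.24 and 0.24, then 0.05, 0.11 and 0.36, then -0.25, -0.12 and 0.20), so the numbers were not taken as pairs. No named member changed sign in the comparisons with untreated EAE. In treated EAE against naive, 7 of 15 named members changed sign somewhere, all with log2 fold changes of at most 0.24 in size. Members of few counts, such as Ccnb1, are limited by depth.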

Other observations

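Cd4, listed among T cell markers, had 2.25, 9.98 and 3.12 CPM in treated EAE brains, against 8.59, 12.9 and 0.590 CPM in untreated EAE brains and 19.0, 3.37 and 1.10 CPM in naive brains, while Cd3e was at most 0.259 CPM. Cd4 and the summed striatal markers were each highest in naive brain 1, untreated EAE brain 2 and treated EAE brain 2. Cd4 was chosen after its values were seen.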
